A study of Aspergillus nidulans with 8 samples.

Results

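Colonies of the filamentous fungus Aspergillus nidulans grown on YES agar were compared with colonies grown on CYAs agar at the same age, 4 days and 10 days. The comparison rests on 4 of the 8 arrays of the study, chosen by the labels for growth medium and sampling time: YES day 4, YES day 10, CYAs day 4 and CYAs day 10, with 1 array each. The CYAs array of day 8 was left out because YES has no array of that day. All 11127 genes with a value in the authors' deposited table were on the arrays, and 11109 of them were tested. The other arrays of the study held CYA colonies of days 4, 8 and 10. The 2 CYA arrays of days 4 and 10 entered only the fit and the descriptions of where CYA lay. Every colony was stab-inoculated and kept in darkness at 32 °C, and whole colonies were scraped from the agar as mycelium. The labels give no strain or genotype and leave the names of the media as abbreviations. Both YES samples carry YESs in their titles, which was read as the same medium. No label says that cultures were replicated, so each same-day difference is a difference between 2 single arrays, and the spread within a medium is a spread over days.

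A colony of this fungus on agar is a mixture of growing hyphae, ageing hyphae and spore-bearing structures, and in bulk RNA fewer cells of a type and less RNA per cell cannot be told apart. Its genome holds many secondary metabolite genes in clusters of neighbours, among them the clusters for sterigmatocystin, penicillin and aspernidine, and such clusters are known to respond to medium and age. Asexual spores, called conidia, carry a hydrophobin coat and a polyketide pigment, while fruiting bodies develop inside a layer of thick-walled Hülle cells. Gene levels below are log2 signals minus the 75th percentile of the array, so a level of 0 is the signal at that percentile, and a difference of 1 is 2-fold. Every difference is YES minus CYAs.

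The 75th percentile of the signal was between 1483.4 and 4976.6 units on the 4 arrays, and between 10878 and 11114 genes had a probe well above background. No slide held arrays of both media: the YES arrays were on 1 slide and the CYAs arrays on another, so slide and medium cannot be told apart within a pair. The CYAs array of day 10 stood apart at the dim end of the scale. The 5th percentile of gene levels was -7.14 on YES day 4 and -7.39 on YES day 10, against -7.82 on CYAs day 4 and -5.88 on CYAs day 10. In the dimmest decile of genes the median difference was 0.63 on day 4 and -1.61 on day 10, while it was 0.00 and -0.08 with background-corrected and quantile-normalized values. From decile 4 upwards the 2 scalings differed by at most 0.18 in the median of a decile. How far this dim end enters a single gene's difference was not tested. For a number of dim genes and lists the quantile-normalized value is given as well.

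**Figure D1:**
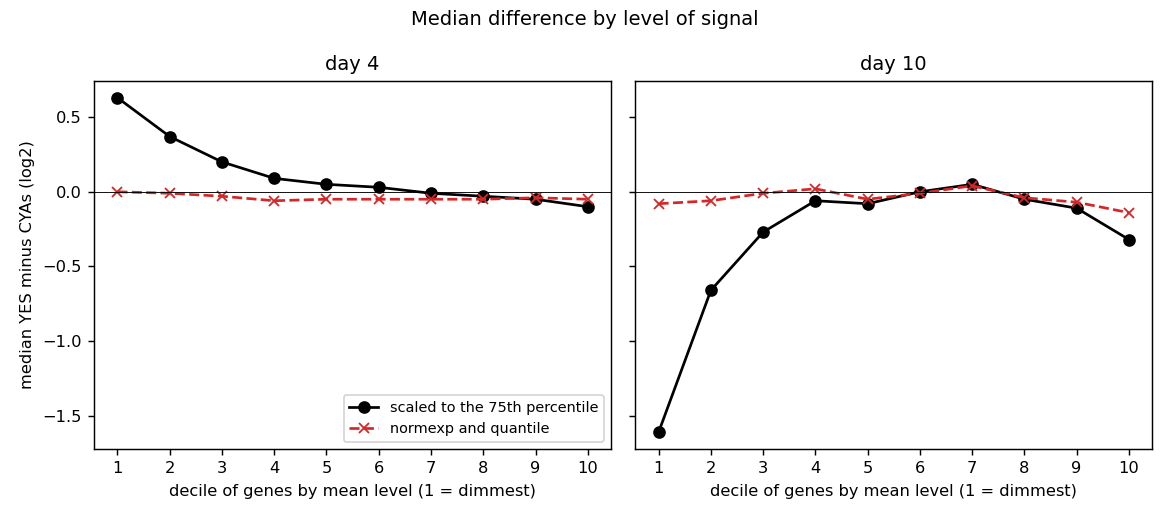
Median YES minus CYAs difference (log2, y axis) in each decile of the 11109 genes by mean level (x axis, 1 = dimmest), on day 4 and day 10. Black points are values scaled to the 75th percentile and red crosses are quantile-normalized values; the black line leaves 0 in the dimmest deciles, upwards on day 4 (0.63) and downwards on day 10 (-1.61).

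Across all genes the media differed more on day 10 than on day 4. The same-day difference had a median of 0.07 and an SD over genes of 0.89 on day 4, and a median of -0.22 and an SD of 1.67 on day 10. On day 4 YES had 1343 genes (12.1%) higher by at least 2-fold and 569 (5.12%) lower. On day 10 the counts were 1541 genes (13.9%) higher and 2954 (26.6%) lower. The 2 sets of differences had a Pearson correlation of 0.27 and a Spearman correlation of 0.18 over the 11109 genes, which are not independent replicates. At least 2-fold on both days, 391 genes (3.52%) lay higher on YES and 386 (3.47%) lay lower. Higher on day 4 and lower on day 10 were 444 genes (4%), and the reverse order was found for 50 genes (0.45%). With quantile-normalized values these 2 counts were 53 and 31, so most of that imbalance was not seen there. The single-day counts were then 561 higher and 397 lower on day 4, and 1396 higher and 1486 lower on day 10.

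No single gene passed the test. Limma with medium and day as additive terms called 0 of 11109 genes (0%) at an adjusted p under 0.05, and its smallest adjusted p was 0.20. At an unadjusted p under 0.05 it had 441 genes (3.97%) higher on YES and 542 (4.88%) lower. The fit had 2 residual degrees of freedom. All differences that follow are therefore descriptions of 4 arrays. With quantile-normalized values the counts on both days were 207 higher and 253 lower, of which 201 and 253 were also among the 391 and 386. Those shared genes were 51.4% of the 391 and 97.1% of the 207 on the higher side, and 65.5% of the 386 and 100% of the 253 on the lower side.

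**Figure D2:**
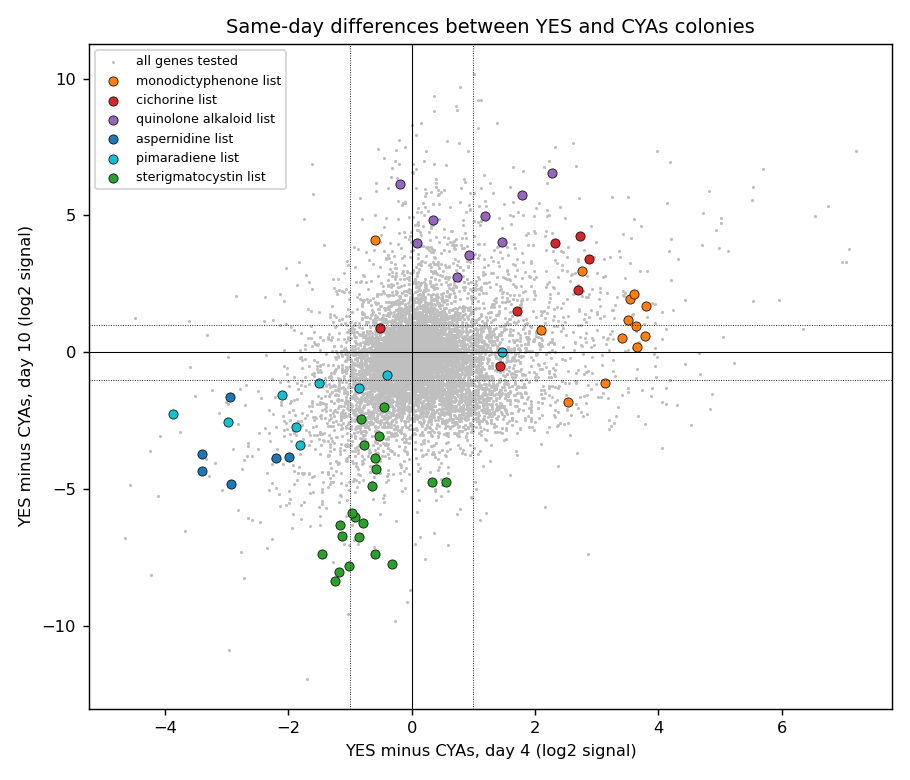
YES minus CYAs difference on day 4 (x axis, log2 signal) and day 10 (y axis, log2 signal) for the 11109 genes, with the genes of 6 metabolite lists in colour and dotted lines at 2-fold. Aspernidine genes sit in the lower left corner on both days (medians -2.93 and -3.85), and sterigmatocystin genes lie near 0 on day 4 and far below it on day 10 (medians -0.78 and -6.02).

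Beside CYAs, the CYA arrays gave no single picture of which medium stood apart. Of the 391 genes higher on YES, CYA lay nearer to CYAs on both days for 164 and nearer to YES on both days for 77. Of the 386 genes lower on YES, CYA lay nearer to CYAs on both days for 133 and nearer to YES on both days for 95. The other genes of both sets were nearer to a different medium on each day.

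The 10 genes with the largest differences towards YES on both days were between 4.72 and 7.20 higher on day 4 and between 4.71 and 7.37 higher on day 10. None of the 10 has a symbol in the reference annotation, so they are given by locus tag. AN11097 had levels of -1.01 on YES day 4 and 1.93 on YES day 10, against -8.21 and -5.44 on CYAs. This was a difference of 7.20 on day 4 and 7.37 on day 10, or 147-fold and 166-fold (fitted difference 7.28 ± 0.32 SE, limma adjusted p = 0.20). Both YES arrays lay far above both CYAs arrays, although only 1 of the 3 probes was well above background on CYAs day 4, and the quantile-normalized difference of that day was 3.85.

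AN11089 had levels of -0.73 and 2.25 on YES, against -6.43 and -4.43 on CYAs. AN8584 had -2.48 and 0.66 on YES, against -7.30 and -5.23 on CYAs. These genes and AN11097 are neighbours, and for all 3 CYA lay nearer to YES than to CYAs on both days. The CYA levels of days 4 and 10 were -0.88 and 2.44 for AN11097, -0.86 and 1.16 for AN11089 and -2.55 and 0.58 for AN8584. For AN11089 the quantile-normalized difference of day 4 was 3.58 in place of 5.70, and for AN8584 it was 2.39 in place of 4.82.

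AN11979 had levels of -1.56 and 0.35 on YES, against -7.08 and -5.69 on CYAs, with CYA between them at -4.51 and -3.13. Of its 3 probes, 2 were well above background on CYAs day 4, and its day 4 difference of 5.53 was 3.17 with quantile normalization. It was the gene whose call depended on the arrays used: with all 8 arrays of the study in the fit its limma adjusted p was 0.034, and no other gene was called. AN8365 had 0.32 and 0.34 on YES, against -5.20 and -5.23 on CYAs, so each medium held its level over the 6 days between the samples. AN4140 was as steady, with 0.75 and 0.54 on YES, against -4.27 and -4.17 on CYAs.

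AN1627 had levels of 3.20 and 2.89 on YES, against -3.55 and -2.46 on CYAs, and was also bright on CYA at 1.08 and 2.45. AN3781 had 1.59 and -0.67 on YES, against -4.95 and -5.64 on CYAs, and AN11530 had 0.09 and 0.75 on YES, against -4.93 and -4.18 on CYAs. AN8249 had 0.72 and 1.94 on YES, against -4.00 and -3.16 on CYAs. In all 10 genes both YES arrays lay above both CYAs arrays. Limma's adjusted p for the 10 ran between 0.201 and 0.43.

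The 10 genes with the largest differences in the other direction had differences from -4.64 to -3.33 on day 4 and from -8.13 to -3.61 on day 10, again all without a reference symbol. AN8638 had levels of -1.71 and -4.26 on YES, against 2.93 and 2.54 on CYAs, a difference of -4.64 on day 4 and -6.80 on day 10 (fitted difference -5.72 ± 1.0 SE, limma adjusted p = 0.44). It was high on CYA too, at 1.72 and 3.05. In the reference order it is next to catA (AN8637), the gene of a catalase of conidia, whose differences were -1.84 and -4.43.

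AN8979 had levels of -2.09 and -5.02 on YES, against 2.13 and 3.11 on CYAs, the widest gap of the 10 on day 10 at -8.13. On CYA it was at 3.25 on day 4 and at -3.26 on day 10, so the CYA colonies resembled CYAs at the younger age and YES at the older. Its neighbour AN8980 had -5.35 and -7.39 on YES, against -1.24 and -2.14 on CYAs. Its day 10 difference of -5.26 was -2.79 with quantile normalization.

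AN6940 had levels of -1.56 and -1.67 on YES, against 1.86 and 1.97 on CYAs, and AN8553 had -2.83 and -2.83 on YES, against 0.51 and 1.07 on CYAs. Both were steady between the days. AN7215 had -1.09 and -3.43 on YES, against 3.15 and 0.17 on CYAs, so it was lower at the older age in both media.

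AN4131 had levels of -4.05 and -7.35 on YES, against 0.51 and -2.48 on CYAs, and its day 10 difference of -4.87 was -2.46 with quantile normalization. AN12038 had -7.18 and -9.28 on YES, against -3.49 and -2.75 on CYAs. Just 1 probe of it exceeded background clearly on each YES array, and the quantile-normalized differences were -1.75 and -2.46 in place of -3.68 and -6.53. The last of the 10, AN3228 and AN3230, belong to the aspernidine list described below. Limma's adjusted p for the 10 ran between 0.219 and 0.552.

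**Figure D3:**
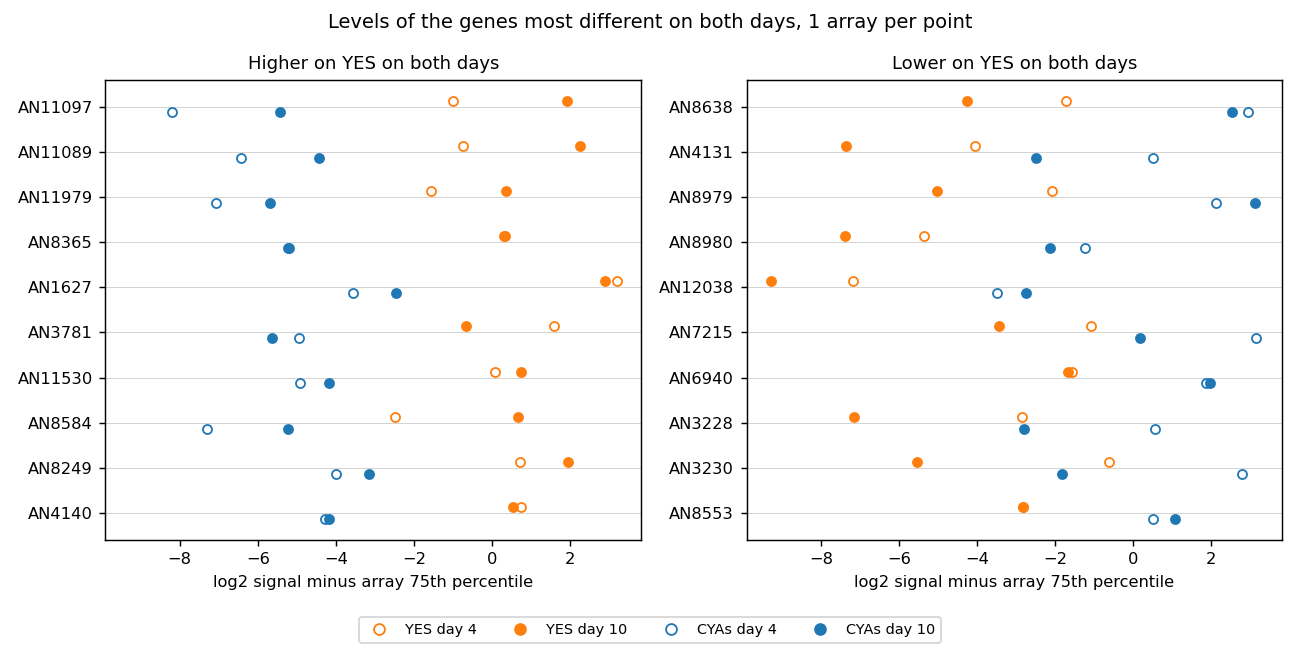
Levels (log2 signal minus the array's 75th percentile, x axis) of the 10 genes with the largest differences in each direction, with YES (orange) drawn above CYAs (blue) and open points for day 4, filled points for day 10. Both YES points lie right of both CYAs points in every row of the left panel; in the right panel they lie left of them, except that for AN3228 YES day 4 (-2.85) and CYAs day 10 (-2.81) nearly coincide and for AN3230 YES day 4 (-0.61) lies above CYAs day 10 (-1.83).

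Of the 391 genes at least 2-fold higher on YES on both days, 19 lay in 4 runs of at least 4 neighbours in the order of the reference annotation. Of the 386 lower genes, 24 lay in 5 such runs. With quantile-normalized values there were 4 runs higher, with 18 genes, and 3 lower, with 14 genes.

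The run with the largest differences was AN8584, AN8583, AN11089 and AN11097, whose median difference was 5.26 on day 4 and 6.29 on day 10, and 2.99 and 5.55 with quantile normalization. AN8583, the member not yet described, had levels of -2.55 and -1.0 on YES, against -6.75 and -5.12 on CYAs, and its day 4 difference of 4.20 was 2.15 with quantile normalization. The longest run higher on YES held 6 genes from AN8105 to AN8110, with medians of 2.91 and 2.29. In it AN8106 had levels of 4.22 and 3.46 on YES, against 1.32 and 1.93 on CYAs, and AN11049 had 2.89 and 2.91 on YES, against -0.03 and 0.59 on CYAs. A further run, from AN3410 to AN3407, had medians of 2.36 and 4.31. Its AN3409 had levels of -1.87 and 0.94 on YES, against -6.05 and -6.01 on CYAs, and its day 4 difference of 4.18 was 2.51 with quantile normalization. None of these genes has a symbol in the reference. The fourth run is part of the monodictyphenone list.

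On the lower side, 2 runs of 6 genes each lay within the aspernidine and pimaradiene lists. A run of 4, AN8981 to AN8978, held AN8979 and AN8980 and had medians of -3.65 and -4.65, which were -2.54 and -2.61 with quantile normalization. AN8981 had levels of -5.75 and -6.26 on YES, against -2.56 and -2.22 on CYAs, and quantile-normalized differences of -2.06 and -2.44. Another run of 4, AN9444 to AN1603, lies just beyond the pimaradiene list and holds eglD, by its name an endoglucanase gene, with levels of -2.17 and -5.81 on YES, against -0.58 and -2.78 on CYAs. The day 10 difference of eglD was -3.03, and -1.77 with quantile normalization. The last run, AN8146 to AN8149, held ergS at -7.38 and -5.60 on YES, against -3.61 and -2.70 on CYAs, with quantile-normalized differences of -1.85 and -1.75. With quantile normalization the last run and the pimaradiene run were not found.

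Gene lists written by locus tag from general knowledge of the genome cover 37 groups and 297 tested genes. For a list, counts and medians are given beside those of all genes, whose medians were 0.07 on day 4 and -0.22 on day 10 and of which 3.52% were at least 2-fold higher and 3.47% at least 2-fold lower on both days. A median at least 2-fold from 0 was seen for 9 lists on day 4 and for 20 on day 10. It was past 2-fold in the same direction on both days for cichorine above 0 and for aspernidine, pimaradiene and the ethanol list below 0. It was past 2-fold in opposite directions for nitrate assimilation. With quantile normalization the ethanol list's day 4 median was -0.91 and pimaradiene's day 10 median was -0.81, both under 2-fold.

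Aspernidine, a prenylated polyketide, has a list that lay lower on YES throughout: 6 of its 6 genes were at least 2-fold lower on day 4 and on day 10. The median difference was -2.93 on day 4 and -3.85 on day 10. The list's synthase gene AN3230 had levels of -0.61 and -5.54 on YES, against 2.79 and -1.83 on CYAs (differences -3.40 and -3.71, fitted -3.55 ± 0.37 SE, limma adjusted p = 0.37). AN3228 had levels of -2.85 and -7.15 on YES, against 0.56 and -2.81 on CYAs, and its day 10 difference of -4.34 was -2.14 with quantile normalization. AN3226 had levels of 1.16 and -1.62 on YES, against 3.36 and 2.24 on CYAs. Within each medium the older colony had the lower level for each of the 6 genes, and on each day the YES colony lay below the CYAs colony. Over the list the quantile-normalized medians were -2.62 and -2.33, so the direction was the same and the day 10 gap smaller.

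The pimaradiene list, for a diterpene cluster, had 6 of 9 genes at least 2-fold lower on YES on both days, with medians of -1.81 and -1.58. AN1596 had levels of -0.65 and -3.15 on YES, against 2.32 and -0.58 on CYAs (fitted difference -2.77 ± 0.37 SE, limma adjusted p = 0.38). AN1595 had -4.50 and -5.22 on YES, against -0.63 and -2.96 on CYAs, with a day 10 difference of -2.27 that was -1.39 with quantile normalization. AN1597 had -1.89 and -5.03 on YES, against -0.02 and -2.31 on CYAs. The list's synthase gene AN1594 was nearer in the media, at -4.33 and -4.80 on YES, against -2.83 and -3.69 on CYAs, and its day 10 difference of -1.11 was -0.56 with quantile normalization. The outermost gene AN1591 went the other way on day 4, with a difference of 1.47, and had -0.01 on day 10. With quantile normalization the day 10 median was -0.81 in place of -1.58.

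Sterigmatocystin, a toxic polyketide related to aflatoxin, showed an age-dependent gap. Its 21 tested genes had a median difference of -0.78 on day 4 and -6.02 on day 10, and the second was -4.62 with quantile normalization. At least 2-fold lower on both days were 6 of 21. The list's synthase gene AN7825 had levels of 2.13 on YES day 4 and -2.05 on YES day 10, against 2.91 and 4.17 on CYAs. AN7806 had 2.45 and -5.14 on YES, against 3.68 and 3.23 on CYAs, and AN7810 had -0.28 and -5.93 on YES, against 1.17 and 1.43 on CYAs. The probes of AN7810 differed widely on day 10, with an SD of 2.71 between their differences. AN7812 had 0.39 and -5.87 on YES, against 1.41 and 1.93 on CYAs. The YES array of day 10 was thus the low array of the 4. The CYA colony of day 10 was low as well, with AN7806 at -1.17. The day 10 difference was negative for all 21 genes, from -8.37 to -1.99, and the fitted list median was between -6.13 and -0.64 over the alternatives, the smallest when the CYAs array of day 10 was left out.

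Other metabolite lists shared a day 10 gap in the same direction without one on day 4. The penicillin list of 3 genes had medians of 0.09 and -3.57, and the second was -2.30 with quantile normalization. Its synthase gene AN2621 had levels of -7.51 and -9.15 on YES, against -8.02 and -5.59 on CYAs, and its day 10 difference of -3.57 was -0.38 with quantile normalization. AN2622 had -2.46 and -6.25 on YES, against -2.55 and -0.41 on CYAs. AN2623 had -3.91 and -3.63 on YES, against -3.85 and -0.88 on CYAs, so here the CYAs colony of day 10 was the high array rather than the YES colony the low. The austinol list of 18 genes had medians of 0.78 and -3.36, which were 0.43 and -1.84 with quantile normalization. Its synthase gene AN8383 had levels of 0.93 and -3.05 on YES, against 0.16 and -0.16 on CYAs.

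Emericellamide lay lower on YES on both days (medians -1.49 and -0.90), with 2 of 4 genes at least 2-fold lower on both. Its AN2547 had levels of 1.20 and -0.34 on YES, against 2.98 and 0.73 on CYAs, and AN2545, a further synthase gene, had -4.00 and -4.07 on YES, against -3.19 and -3.63 on CYAs. Medians of the remaining metabolite lists were -0.81 and -1.89 for aspercryptin, -0.12 and -2.13 for terrequinone and -0.24 and -2.11 for microperfuranone. The day 10 medians of aspercryptin and terrequinone were -0.52 and -0.99 with quantile normalization. Medians were -0.32 and 0.74 for orsellinic acid, 0.67 and -0.64 for aspyridone and -0.38 and -0.55 for asperfuranone. With quantile normalization orsellinic acid had -0.36 and 1.08, aspyridone had 0.09 and 0.00, and asperfuranone had 0.14 on day 10.

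The monodictyphenone list, for an anthraquinone-derived polyketide, lay higher on YES, most clearly at the younger age. Its 13 genes had a median difference of 3.50 on day 4 and 0.94 on day 10, and 5 of 13 were at least 2-fold higher on both days. tpcC (AN0150), the list's synthase gene, had levels of 5.13 and 2.93 on YES, against 1.59 and 0.97 on CYAs (fitted difference 2.75 ± 0.51 SE, limma adjusted p = 0.44). AN0148 had 2.91 and 2.63 on YES, against 0.15 and -0.35 on CYAs, the member with the most even difference (2.76 and 2.97). AN10022 had 4.85 and 2.96 on YES, against 1.24 and 0.85 on CYAs. Not all members followed: arp1 (AN10049) had differences of 3.14 and -1.12, AN0146 had 2.54 and -1.83, and AN10039 had -0.59 and 4.10.

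The cichorine list, for a phytotoxic polyketide, had 5 of 7 genes at least 2-fold higher on YES on both days and medians of 2.33 and 2.26. tpcA (AN6447) had levels of 1.95 and 1.61 on YES, against -0.79 and -2.63 on CYAs. The list's synthase gene AN6448 had 1.1 and 1.04 on YES, against -1.23 and -2.94 on CYAs, and AN6449 had 0.77 and 0.39 on YES, against -2.10 and -3.03 on CYAs. CYA was on the YES side at day 4 (2.25 for tpcA) and on the CYAs side at day 10 (-2.68). With slide as a block, a fit that rests on those CYA arrays, the list's median of 2.47 became -0.61.

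On day 10 the asperthecin and quinolone alkaloid lists were far higher on YES. Asperthecin, an anthraquinone pigment, is represented by 3 genes that the reference calls nscA, nscB and nscC. nscA (AN6000), the list's synthase gene, had levels of -5.21 on YES day 4 and 4.95 on YES day 10, against -6.22 and -5.21 on CYAs. That is a difference of 1.01 on day 4 (0.29 with quantile normalization) and 10.16 on day 10 (fitted 5.58 ± 2.45 SE, limma adjusted p = 0.57). nscB (AN6001) had -2.12 and 3.73 on YES, against -2.20 and -1.38 on CYAs. nscC (AN6002) had -2.90 and 0.87 on YES, against -3.56 and -3.57 on CYAs. The YES colony of day 10 was the high array of the 4 for each gene, and CYA day 10 was high as well for nscA (3.52) and nscB (2.52).

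The quinolone alkaloid list had medians of 0.93 and 4.82 over 9 genes, with 4 of 9 at least 2-fold higher on both days. AN9227 had levels of -6.30 and 1.24 on YES, against -8.57 and -5.31 on CYAs. AN9232 had -7.46 and -0.45 on YES, against -9.25 and -6.18 on CYAs. No probe of AN9232 was well above background on CYAs day 4, so its day 4 difference has only a bound, at least 3.39-fold higher on YES. The genes of this list were dim on both arrays of day 4, and the quantile-normalized median of that day was 0.06. AN9226, the synthase gene, had -7.41 and -2.89 on YES, against -8.13 and -5.64 on CYAs.

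The benzaldehyde-derivative list had a median of 2.78 on day 4 and -0.36 on day 10, with 2 of 8 genes at least 2-fold higher on both days. AN7900 had levels of -1.02 and -3.60 on YES, against -4.85 and -5.36 on CYAs. The list's synthase gene AN7903 had -1.71 and -8.07 on YES, against -4.89 and -6.38 on CYAs, and its differences of 3.18 and -1.69 were 2.08 and 0.01 with quantile normalization. Among 23 further polyketide and peptide synthase genes, 2 were at least 2-fold higher on both days. AN6431 had -4.19 and 1.25 on YES, against -5.98 and -2.36 on CYAs, and AN4827 had -1.63 and -0.51 on YES, against -2.66 and -2.47 on CYAs. With quantile normalization the day 4 difference of AN6431 was 0.94 and that of AN4827 was 0.75, both under 2-fold. The list's medians were 0.30 and -0.52, and the second was 0.03 with quantile normalization.

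**Figure D4:**
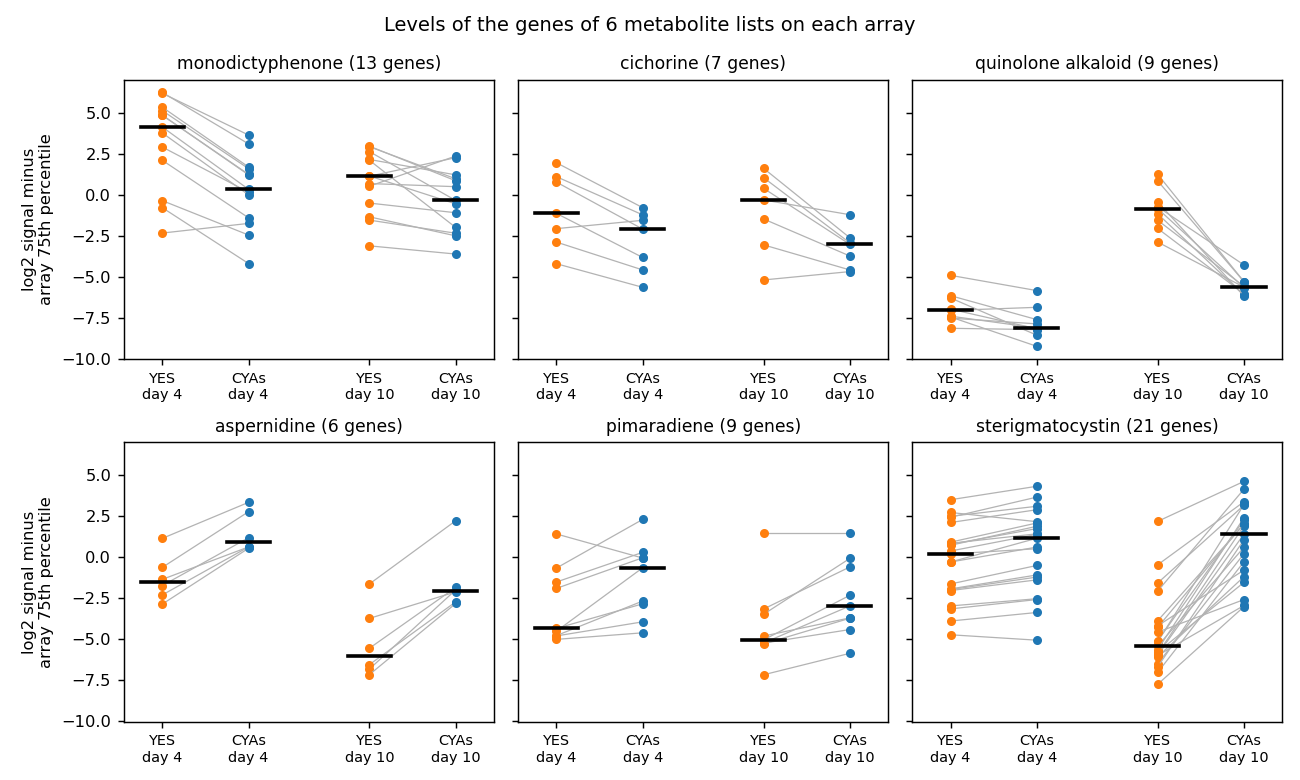
Levels (log2 signal minus the array's 75th percentile, y axis) of the genes of 6 metabolite lists on the 4 arrays, YES in orange left of CYAs in blue for each day, with grey lines joining a gene's 2 values of a day and black bars at the list's median. In the aspernidine and pimaradiene panels the YES median lies below the CYAs median on both days, in the monodictyphenone panel it lies above, more so on day 4, and the quinolone alkaloid and sterigmatocystin gaps open on day 10.

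Of 9 conidium and conidiophore markers, 5 were at least 2-fold lower on YES on day 10 (26.6% of all genes) and 1 on day 4 (5.12% of all genes), with 0 at least 2-fold higher on either day. All 9 had a probe well above background on all 4 arrays. Their summed signal, in multiples of the 75th percentile, was 42.8 on YES day 4 and 1.65 on YES day 10, against 44.7 and 39.9 on CYAs. The YES colony of day 10 was the low array of the 4. Most of this sum comes from rodA, dewA and pksP; without these 3 genes it was 1.32 on YES day 4 and 0.773 on YES day 10, against 1.84 and 1.36 on CYAs. The sum of all 9 on CYA was 10 on day 4 and 1.28 on day 10.

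rodA (AN8803), the main hydrophobin of the conidial rodlet layer, had levels of 4.51 and -3.41 on YES, against 4.30 and 4.15 on CYAs, a difference of 0.21 on day 4 and -7.56 on day 10. dewA (AN8006), another hydrophobin of the spore wall, had 3.69 and -3.30 on YES, against 3.63 and 3.71 on CYAs. pksP (AN8209), the polyketide synthase of the conidial pigment, had 2.54 and -0.56 on YES, against 3.42 and 2.92 on CYAs, and yA (AN6635), the laccase that turns the pigment green, had -1.88 and -3.85 on YES, against -1.73 and -1.60 on CYAs. wetA (AN1937), a regulator that acts late in spore maturation, had differences of -0.05 and -2.82, and the second was -1.84 with quantile normalization. The regulator abaA (AN0422) had 0.30 and -0.95, and brlA (AN0973), which starts conidiation, had 0.98 and 0.12. Of the conidiophore pigment genes, ivoB (AN0231) had -1.25 and -0.75, and ivoA (AN10576) had -0.13 and 0.34.

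Among the 6 hydrophobin genes of the list the median difference was 0.09 on day 4 and -5.76 on day 10 (-4.28 with quantile normalization). At least 2-fold lower on both days was 1 gene. That gene, AN6401, had levels of -1.55 and -6.58 on YES, against -0.53 and -1.84 on CYAs, and its day 10 difference of -4.74 was -3.03 with quantile normalization. AN7539 went its own way, at -2.69 and -1.51 on YES, against 0.15 and -3.58 on CYAs (differences -2.84 and 2.07).

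All 5 markers of Hülle cells and fruiting bodies had a probe well above background on the 4 arrays, and their summed signal was 6.7 on YES day 4 and 6.97 on YES day 10, against 6.86 and 18.9 on CYAs. On CYA the sum was 12.4 on day 4 and 115 on day 10, where AN7349 was at 6.69. AN7349 and AN7388 had the highest levels of the 5 on CYAs day 10, and AN4263 differed by 0.15 and -0.28. AN7349 had levels of -5.41 and 0.52 on YES, against -5.33 and 2.61 on CYAs, so both media had a higher level at 10 days. AN7388 had -0.10 and 0.69 on YES, against 0.60 and 2.91 on CYAs. nsdD (AN3152) and steA (AN2290), regulators of sexual development, differed by 0.27 and -0.52 and by -0.08 and -0.37. Among the regulators of development and metabolism known as the velvet group, veA (AN1052) had differences of 0.32 and -1.60, and laeA (AN0807) had -0.06 and -0.27. AN2059 was at -0.20 and -1.52 on YES, against 0.94 and 0.92 on CYAs.

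Genes for growth on ethanol and for gluconeogenesis lay lower on YES. The ethanol and acetaldehyde list had medians of -1.02 and -2.64 (-0.91 and -2.18 with quantile normalization). At least 2-fold lower on both days were 3 of its 6 genes. These were AN8979, described above, AN8978, with levels of -3.75 and -4.47 on YES, against -2.25 and -1.32 on CYAs, and AN0554, with 0.45 and 0.58 on YES, against 1.56 and 2.71 on CYAs. AN4888 of the same list differed by 0.19 and 1.15.

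The gluconeogenesis and glyoxylate list had medians of -0.39 and -1.40 with 2 of 8 genes at least 2-fold lower on both days. acuF (AN1918), phosphoenolpyruvate carboxykinase, the entry step of gluconeogenesis, had levels of -0.33 and -0.44 on YES, against 1.03 and 3.37 on CYAs (fitted difference -2.59 ± 0.74 SE, limma adjusted p = 0.55). AN5634 had -0.71 and -1.37 on YES, against 0.34 and 2.07 on CYAs. facB (AN0689), the activator of acetate use, had -1.13 and -1.22 on YES, against -0.68 and -0.09 on CYAs. The level of acuF was nearly the same on both YES arrays, and the CYAs colony of day 10 was the high array.

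The glycolysis list of 9 genes had medians of -0.14 and -0.05 and 0 genes at least 2-fold on both days. On day 10 alone 3 of the 9 were past 2-fold, AN8689 by 2.26, AN7459 by 2.03 and AN2875 by -1.32. Of all genes, 13.9% were at least 2-fold higher and 26.6% lower on that day, so this count does not set the list apart. Here pgkA (AN1246), phosphoglycerate kinase, had levels of 3.75 and 2.28 on YES, against 4.24 and 2.87 on CYAs. The starch and sucrose list had medians of 0.55 (0.19 with quantile normalization) and -2.28 with 0 of 8 genes past 2-fold in the same direction on both days. Its AN8953 had levels of 0.65 on YES day 4 and -2.42 on YES day 10, against -2.21 and 4.97 on CYAs, a difference of 2.86 on day 4 and -7.39 on day 10. AN3402 had -6.01 and -6.95 on YES, against -7.13 and -0.81 on CYAs, and its differences of 1.11 and -6.14 were 0.27 and -3.81 with quantile normalization. CYAs day 10 was the high array for both genes.

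Nitrate assimilation genes were lower on YES at 4 days and higher at 10 days. The list of 6 had medians of -1.61 and 1.30. niaD (AN1006), nitrate reductase, had levels of -4.11 and -5.19 on YES, against -0.49 and -6.33 on CYAs. niiA (AN1007), nitrite reductase, had -2.68 and -4.17 on YES, against -1.18 and -5.63 on CYAs, and crnA (AN1008), a nitrate transporter, had -3.36 and -1.63 on YES, against -1.32 and -4.72 on CYAs. AN0399 had -0.70 and 0.40 on YES, against 1.01 and -2.40 on CYAs. The regulators nirA (AN0098) and areA (AN8667) were nearer 0, with differences of 0.04 and 0.59 and of 0.61 and 0.89. On CYAs, niaD, niiA, crnA and AN0399 were each lower at 10 than at 4 days. The reversal between the days was not tested.

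For other nitrogen sources the median was -0.12 on day 4 and 1.58 on day 10 over 10 genes. prnD (AN1731), proline dehydrogenase, had levels of -2.49 and 2.12 on YES, against -2.91 and -3.80 on CYAs, and prnB (AN1732), the proline permease, had -3.26 and -0.42 on YES, against -2.06 and -3.12 on CYAs. AN1181 had 2.14 and 1.79 on YES, against 1.45 and -2.03 on CYAs. On day 10, 6 of the 10 genes were at least 2-fold higher (13.9% of all genes) and 3 lower (26.6% of all genes). The 3 lower genes were prnC (AN1733), with differences of -0.45 and -1.39, AN8777, with -0.65 and -2.61, and hxA. hxA (AN5613), xanthine dehydrogenase, had differences of -0.67 and -1.12. The 10 genes included 0 at least 2-fold in the same direction on both days.

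Of 9 genes of iron uptake and siderophores, 7 were at least 2-fold higher on YES on day 4 and 0 lower, while on day 10 1 was at least 2-fold higher and 4 were at least 2-fold lower. Of all genes, 12.1% were higher and 5.12% lower on day 4, and 13.9% were higher and 26.6% lower on day 10. Fungi take up iron with secreted siderophores and their transporters, under the repressor SreA and the regulator HapX, which represses iron-using pathways when iron is scarce. The list of 9 had medians of 1.67 and -0.42 and 1 gene at least 2-fold higher on both days. That gene, hapX (AN8251), had levels of 0.83 and -0.90 on YES, against -2.40 and -2.43 on CYAs (fitted difference 2.38 ± 0.57 SE, limma adjusted p = 0.54). CYA was at the CYAs level, -2.31 and -2.29. sreA (AN0176) differed by -0.58 and 0.46. The 4 genes lower on day 10 were AN5823 (-1.68), sidC (AN0607, -1.15), AN7800 (-1.45) and mirB (AN8540, -1.90), and with quantile normalization AN7800 had -0.23.

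In a list of 13 iron genes by reference symbol, made after the values were seen, 4 were at least 2-fold higher on both days: hapX, sit1, sidI and sidJ. sit1 (AN5378), a siderophore transporter, had levels of -2.26 and -1.87 on YES, against -4.09 and -4.11 on CYAs, and its day 4 difference of 1.83 was 1.21 with quantile normalization. sidI (AN0609), of siderophore synthesis, had -1.03 and -4.09 on YES, against -4.80 and -5.12 on CYAs, and its day 4 difference of 3.77 was 2.44 with quantile normalization. Its day 10 difference of 1.03 was 0.74 with quantile normalization, under 2-fold. sidJ (AN6239) had differences of 1.03 and 1.57, and the first was 0.75 with quantile normalization, also under 2-fold. The transporter mirB (AN8540) had 3.67 and -2.77 on YES, against -0.46 and -0.87 on CYAs, so the YES colony of day 4 was the high array and that of day 10 the low (differences 4.13 and -1.90). Of the neighbours of hapX, AN8250 differed by 4.17 and 3.69, and AN8249 is among the 10 genes highest on YES.

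Of 4 zinc transporter genes, also listed after the values were seen, 1 was at least 2-fold higher on YES on both days. Their medians were 1.54 on day 4 and -1.01 on day 10, and the second was -0.49 with quantile normalization. zrfB (AN3799) had levels of 0.87 and -0.17 on YES, against -0.42 and -1.26 on CYAs, a difference of 1.29 and 1.09. zrfA (AN8337) had -0.66 and -6.62 on YES, against -4.96 and -4.69 on CYAs. Its differences were 4.30 and -1.94, and the second was -0.58 with quantile normalization. zrfC (AN1833) differed by 1.78 and -1.52, the second being -0.49 with quantile normalization, and zrfD (AN10468) differed by -0.25 and -0.50.

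The osmotic and sodium list had a wider gap on day 10 than on day 4, while the catalase and oxidative stress list had medians near 0 on both days. Differences over all genes were also wider on day 10, with an SD of 1.67 against 0.89 on day 4. In the osmotic and sodium list of 12 the medians were -0.21 and -1.07, and 1 gene, AN1628, was at least 2-fold lower on both days, with levels of -0.36 and -1.54 on YES, against 0.77 and 1.24 on CYAs. AN6642 had 3.04 and 0.88 on YES, against 3.08 and 4.80 on CYAs. sakA (AN1017), the stress-activated protein kinase, differed by 0.02 and -1.15, and gldB (AN5563), a glycerol dehydrogenase, by -0.97 and -1.66. Among the catalase and oxidative stress genes, catA was lower on both days, with levels of 1.30 and -1.86 on YES, against 3.14 and 2.57 on CYAs. AN8692 was higher on both, with 3.56 and 2.59 on YES, against 2.53 and 0.09 on CYAs. The medians of that list were -0.24 and -0.32 over 8 genes.

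In the autolysis and extracellular hydrolase list the medians were -0.07 and 1.03 over 5 genes. AN5558 had levels of 4.64 and 5.72 on YES, against 1.40 and 0.06 on CYAs (differences 3.24 and 5.66, fitted 4.45 ± 0.77 SE, limma adjusted p = 0.44). On CYA it was at -0.35 and 0.85, near CYAs. mep20 (AN7962), by its name a metalloprotease gene, had -2.92 and 1.55 on YES, against -3.04 and -1.50 on CYAs. The chitin and glucan synthase list had medians of 0.26 and -0.50, with 0 of 9 genes past 2-fold in the same direction on both days. In it ags1 (AN3307), an alpha-glucan synthase gene by its name, had levels of -2.34 and -2.84 on YES, against -3.19 and -5.82 on CYAs. ags2 (AN5885) had the other order of days, with differences of 3.96 and -0.90.

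The histone list of 4 had medians of 0.18 and -0.14, and 16 proteasome genes, listed after the values were seen, had 0.18 and -0.07. Trehalose and mannitol genes had 0.19 and -0.44 over 6 genes, plant polysaccharide degradation had 0.18 and -0.21 over 10, and light receptors had -0.18 and -0.36 over 4. The sterol synthesis list of 17, also added later, had 0.38 and 0.25 with 0 genes past 2-fold on both days.

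**Figure D5:**
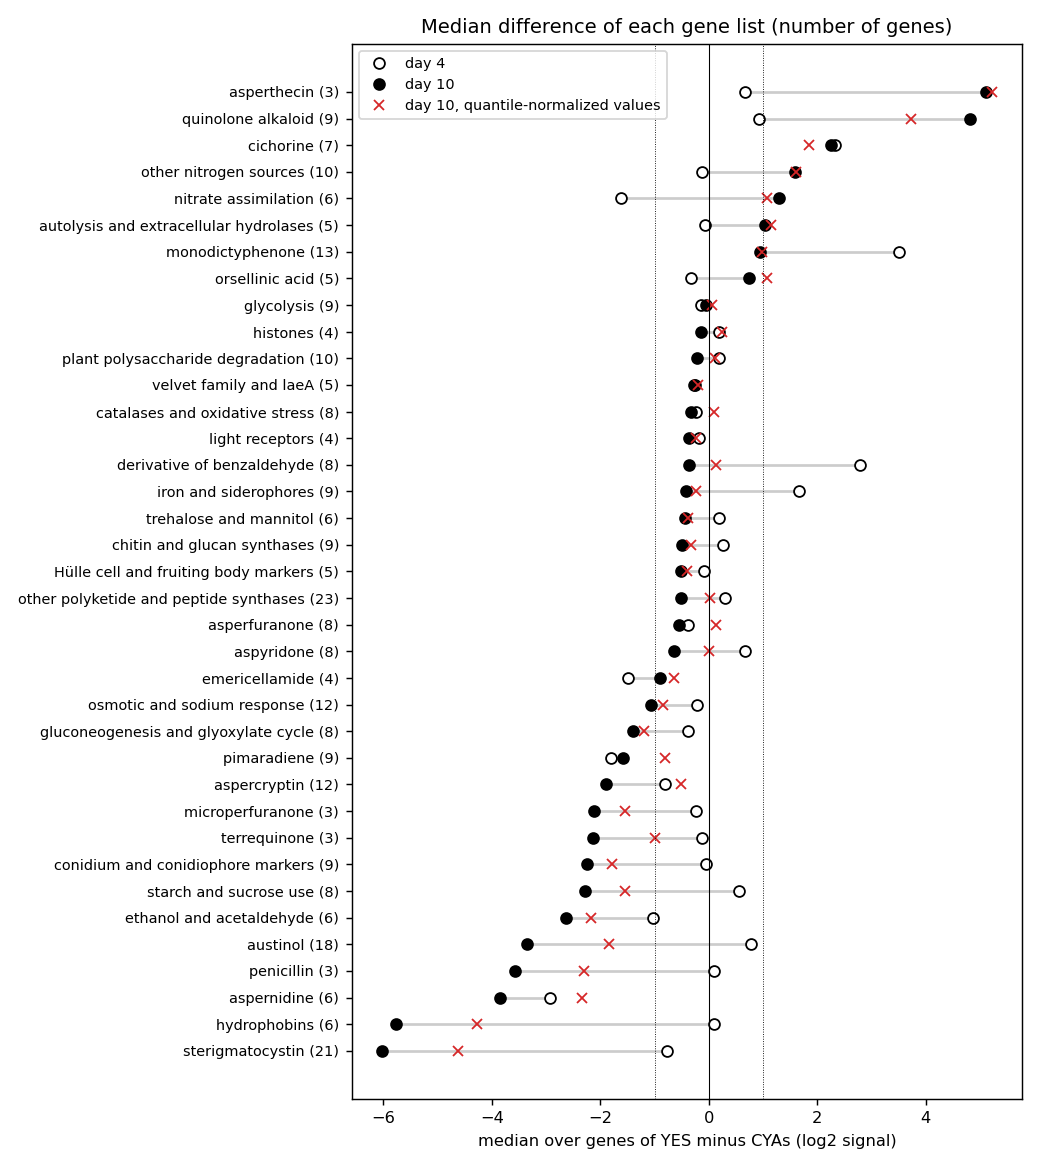
Median over genes of the YES minus CYAs difference (log2 signal, x axis) for 37 gene lists (number of genes in brackets), with open points for day 4, filled points for day 10, red crosses for day 10 after quantile normalization and dotted lines at 2-fold. Lists are ordered by their day 10 median, from asperthecin (5.11) to sterigmatocystin (-6.02); grey lines are long where the 2 days differ, as for hydrophobins (0.09 and -5.76).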

How the data were processed

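Total RNA from scraped colonies was labelled with Cy3 and hybridised to 1-colour Agilent arrays, 1 array per medium and day, per the labels' protocols. Spot intensity values were made with Agilent Feature Extraction 10.5.1.1, per the file headers. The authors also deposited log2 values, 1 per gene and array. Limma and RMA are named for them in the submitters' processing notes without a role, and scale and centring are not otherwise given in the sources used here, so these values served for an alternative fit.

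Each array had 34210 features and 32793 gene probes for 11127 genes. Gene values were log2 processed signals minus the array's 75th percentile, averaged over a gene's probes (3 for 10705 genes), without control and outlier spots. The median SD of the same-day difference between the probes of a gene was 0.13 on day 4 and 0.19 on day 10. Some named genes had a far wider SD on day 10, such as 3.17 for AN6401, 2.71 for AN7810 and 1.97 for AN3228. A gene was tested where a probe was well above background on at least 2 of 6 arrays, which left out 18 genes. Where no probe was well above background on the dimmer array of a day (132 genes on day 4, 34 on day 10), the difference is a bound. A fold then is the bright array's level over the higher of the lowest level well above background and the gene's own level.

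Limma 3.58.1 in R 4.3.3 fitted medium and day additively over the 6 arrays of days 4 and 10 (2 residual and 2.1 prior degrees of freedom), with Benjamini-Hochberg adjustment over all genes tested. The residual therefore also holds any interaction of medium and day. The 2-fold calls on both days (log2 difference of 1) have no test. Precision is limited by how few arrays there are.

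Of the genes, 10413 were found in the reference annotation (ASM1142v1, strain FGSC A4), the source of 779 symbols and of the order of neighbours. List membership, and which member is a synthase gene, come from general knowledge of the genome. A locus whose reference symbol gives another function was left out. The rule for named genes took those with the same sign on both days and a probe well above background on both arrays of the higher medium, ranked by the smaller same-day difference. It gave the 10 first in each direction, 3 members of each described list, synthase genes of described clusters, and the 4 genes with the largest opposite differences. Other list members were chosen after their values were seen. The comparison, the rule and the lists were chosen with earlier results of these data known. Alternatives were other normalizations, filters, arrays and terms of the fit. A common floor for dim signals was added after the data were seen.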

Additional observations from a re-analysis of the deposited data

Results flagged for a closer look

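Opposite differences on the 2 days are listed here for the genes with the largest of them and for the gene list whose median did so. None of these reversals was tested, since each day has 1 array per medium. AN0611 was higher on YES by 4.05 on day 4 and lower by 3.49 on day 10 (a difference of -3.49). It had levels of -5.25 and -9.23 on YES, against -9.30 and -5.73 on CYAs. No probe was well above background on CYAs day 4, so the first difference is bounded at 15.7-fold or more, and with quantile-normalized values the differences were 0.85 and -0.29. AN8953, of the starch and sucrose list, had differences of 2.86 and -7.39, and quantile-normalized differences of 2.50 and -6.80. In the other order, AN12039 had -2.13 on day 4 and 2.12 on day 10, with levels of -5.03 and -0.66 on YES, against -2.90 and -2.78 on CYAs, so that its CYAs level was steady. AN7539, of the hydrophobin list, had -2.84 and 2.07. The nitrate assimilation list had medians of -1.61 and 1.30.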

How the results depend on the processing

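With all 8 arrays in the fit 1 gene was called (AN11979), and under the other 16 alternatives limma called 0, also when each array was left out in turn (range 0 to 0). The fit with slide as a block, estimable only through the CYA arrays, had 229 genes at an unadjusted p under 0.05, against 983. The direction of the 20 genes with the largest differences was the same in 340 of 340 values. These genes were chosen for large differences on both days of these same arrays, so that count is no independent check. Genes at least 2-fold on both days numbered 207 higher and 253 lower with normexp and quantile normalization, and 232 higher with the authors' table, in place of 391 and 386. Fitted medians past 2-fold numbered 17 of 37 lists, 11 with normexp and quantile normalization, and between 9 and 21 when each array was left out. The lowest of these came without CYAs day 10. The cichorine median turned to -0.61 with slide as a block. Slide as a random block gave no finite correlation on 6 arrays and has no value. Of 714 list medians under the alternatives, 654 moved by less than the spread between the days, and 58, in 22 of 42 lists, had the opposite sign. That spread is wide where the days differ, so the 654 do not measure stability. They include sterigmatocystin, which went from -3.47 to -0.64 without CYAs day 10. Some alternatives, such as leaving out a CYA array, left the list medians as they were. With slide as a block penicillin turned to 0.77, benzaldehyde to -0.93 and aspercryptin to 0.10. Without YES day 10 austinol turned to 0.43 and penicillin to 0.26, and without YES day 4 iron turned to -0.47. Pairing by day is a term of the fit, and on the 4 YES and CYAs arrays alone, with 1 residual degree of freedom, limma called 0 genes (smallest adjusted p 0.83, 591 at an unadjusted p under 0.05). Dim signals on the CYAs array of day 10 and 1 array per medium and day limit all values.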

Other observations

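Among the 779 tested genes with a reference symbol, 17 were at least 2-fold higher and 12 at least 2-fold lower on YES on both days. Both were smaller shares than those of all genes, 3.52% higher and 3.47% lower. The genes named here were chosen after their values were seen. On the higher side, ppgA (AN5791), a pheromone precursor gene, had levels of -1.68 and -0.67 on YES, against -3.85 and -3.05 on CYAs. sxa2 (AN2555), whose namesake in fission yeast is a carboxypeptidase, had 0.88 and -1.07 on YES, against -2.49 and -4.79 on CYAs. optB (AN7597), by its name an oligopeptide transporter gene, had -2.41 and 0.82 on YES, against -4.81 and -4.48 on CYAs. In all 3 genes both YES arrays lay above both CYAs arrays, and limma's adjusted p was 0.55 for ppgA, 0.38 for sxa2 and 0.50 for optB. The day 4 difference of optB was 2.4, and 1.51 with quantile normalization.

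Of the 12 genes on the lower side, acuF, eglD, catA and ergS are described above, and nfr1, pld2, faeB-2, hel10, mfsA and aspf34 are given by name only. The other two were acoA and sdh2. acoA (AN5525), aconitase of the citric acid cycle, had levels of 1.45 and 1.68 on YES, against 2.76 and 2.95 on CYAs. sdh2 (AN2332), the iron-sulphur subunit of succinate dehydrogenase, had 0.30 and 0.43 on YES, against 1.43 and 1.53 on CYAs. Both differed by nearly the same amount on each day, -1.32 and -1.26 for acoA and -1.13 and -1.1 for sdh2, with limma adjusted p of 0.53 and 0.55. pacC (AN2855), the regulator of the response to ambient pH, was not past 2-fold on day 4, with differences of -0.91 and -2.43.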
